A study of Danio rerio with 20 samples.

Results

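A set of 150 loci was described that were low in the zebrafish heart apex at 1.5 and 3 days post-cryoinjury (dpci) and were back near the non-injured level at 14 dpci. The members were chosen by their measured values, from a table of 66128 loci with 1 value for each of 20 RNA-sequencing libraries. Of these loci, 16199 had a mean of at least 100 over the 20 libraries, and in 950 of them the highest of the 8 values at 1.5 and 3 dpci lay below the lowest of the 12 values of the other libraries. The group means of log2(value + 1) at 1.5 and 3 dpci were less than 0.5 apart in 842 of the 950, and 753 of those also had a 14 dpci mean within 0.5 of the non-injured mean. Leaving out the 100 loci with the highest non-injured mean removed 31 of the 753, and the 150 members were the loci with the largest fall among the 722 that remained. The fall is the non-injured mean of log2(value + 1) minus the mean of the 8 libraries at 1.5 and 3 dpci, called the early libraries here.

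The 20 libraries fell into 5 groups of 4: apexes of non-injured hearts and apexes taken at 1.5, 3, 7 and 14 dpci. All fish carried the genotype that the labels give as WT, and injured and non-injured fish differed, as far as the labels say, only in the cryoinjury and the time after it. The study's methods state male and female adults of 5 to 12 months and 3 to 4 ventricle apexes pooled in each tube, without the age or sex behind a single library, and list only transgenic reporter lines for the study as a whole. Nothing in the labels says that the tubes came from separate injury sessions, so p-values measure the spread between these pools.

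Cryoinjury kills a part of the ventricle wall by freezing. In zebrafish, immune cells then enter the wound and clear the dead tissue, a temporary scar forms, and surviving cardiomyocytes divide and replace the lost muscle. A bulk library adds up the RNA of muscle, endocardium, epicardium, blood and entering cells, so fewer cells of a type and less RNA per cell cannot be told apart.

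The members are known only by their assembly numbers (XLOC numbers), since the deposited table does not pair gene names with these loci. Neither the roles of the members nor markers of the heart or of blood cells could therefore be read from this table, and no sequence is shown. A value is the number of reads at a locus divided by a size factor of the library, with no correction for the length of the locus, so values were compared between libraries and not between loci as amounts of RNA.

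Before the members are described, the libraries themselves differed in ways that touch every result. The sum of all values in a library ran from 24984991 to 30779426 in the non-injured group. It was lower in the early groups, between 21364710 and 22480209 at 1.5 dpci and between 20815490 and 25163080 at 3 dpci, and higher again later, between 25795542 and 26454306 at 7 dpci and between 24430198 and 30243297 at 14 dpci. The lowest non-injured total was that of replicate 2, and at 14 dpci replicates 3 and 4 had lower totals than replicates 1 and 2. Whole read numbers could be recovered in 19 of the 20 libraries, with 19349169 to 32939802 reads assigned to loci, and not in 7 dpci replicate 1.

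The 150 members took up 3.05% ± 0.548 (SD, n = 4) of all values in non-injured libraries, 1.13% ± 0.108 at 1.5 dpci, 1.11% ± 0.133 at 3 dpci, 2.21% ± 0.209 at 7 dpci and 2.73% ± 0.634 at 14 dpci. The highest early share was 1.27%, in 1.5 dpci replicate 3, and the lowest share outside the early groups was 1.94%, in 7 dpci replicate 4. Non-injured replicates ran from 2.41% in replicate 2 to 3.73% in replicate 1, and 14 dpci replicates from 2.20% in replicate 3 to 3.53% in replicate 1, so those groups overlapped. These shares describe values that the choice of members used.

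**Figure D1:**
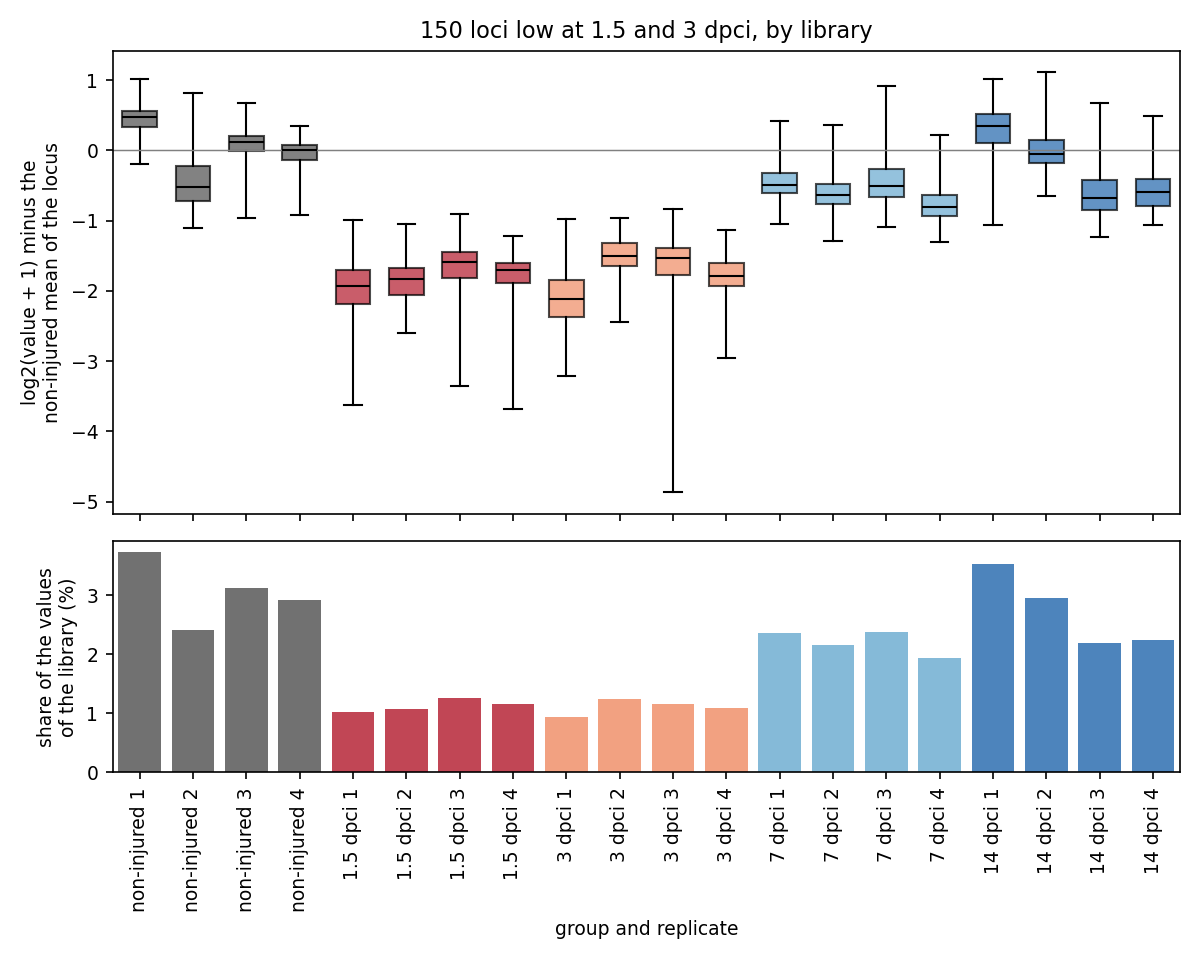
The upper panel shows, for each of the 20 libraries, log2(value + 1) of the 150 members minus each locus's non-injured mean, with the box at the quartiles, the line at the median and the whiskers at the lowest and highest member. The lower panel shows the share of all values of the library taken by the members, in percent. The early libraries have medians of -1.50 to -2.11, and non-injured replicate 2 and 14 dpci replicates 3 and 4 lie below the other libraries of their groups.

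Members fell 2.88-fold to 9.31-fold in the early libraries, with a median fall of 1.74 on the log2 scale, or 3.35-fold. The median log2 difference from non-injured was -1.76 at 1.5 dpci and -1.73 at 3 dpci, beside -0.06 and -0.04 over the 16199 loci with a mean of at least 100. In limma fits over the 62594 loci with any value above 0, all 150 members passed an adjusted p of 0.05 as lower at both times, where 10.1% of all loci tested and 24.2% of those with a mean of at least 100 were lower at 1.5 dpci, and 10.4% and 23.2% at 3 dpci. Since these contrasts chose the members, the counts are a description.

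Scaling every library to the same total reduced the median difference of the members to -1.37 at 1.5 dpci and -1.44 at 3 dpci, with all 150 still lower. The same scaling moved the median of the 16199 loci upwards, to 0.33 at 1.5 dpci and 0.25 at 3 dpci. The part of the library totals in the size of the fall was not tested beyond this.

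Non-injured means of the members ran from 153 to 25339, with a median of 3737. A non-injured mean of at least 1000 was found in 117 of the 150 members (78.0%), beside 29.4% of the loci with a mean of at least 100. The rule used the non-injured values, so this share is a description. The median of the mean over 20 libraries was 2260 in the members and 959 in the 572 loci that met the conditions but ranked below 150. Depth was seldom the limit in the early libraries: the fewest recovered reads of any member in any of them was 19, and 132 members had at least 100 reads in every one.

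The largest fall belonged to XLOC_020785, with values of 562, 381, 625 and 540 in non-injured replicates 1 to 4. It stood at 41.1, 103, 49.8 and 39.4 at 1.5 dpci and at 55.3, 94.4, 16.8 and 108 at 3 dpci. Both early groups lay below every non-injured library, as the rule required. At 7 dpci it measured 328, 433, 595 and 210, and at 14 dpci 415, 955, 829 and 452, both ranges overlapping the non-injured one. The log2 difference from non-injured was -3.25 ± 0.47 (SE) at 1.5 dpci and -3.19 ± 0.47 at 3 dpci, a 9.31-fold fall over the early libraries. This locus was well apart from the next in rank, XLOC_038344, which fell 5.07-fold.

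XLOC_038344 averaged 1795 ± 650 (SD, n = 4) in non-injured apexes, 360 ± 127 at 1.5 dpci and 343 ± 131 at 3 dpci. Its 7 dpci values were 1484, 1487, 3200 and 814, the highest of them above all 4 non-injured values (2480, 1452, 2183 and 1066) and the lowest below all of them. The 14 dpci values of 2947, 3693, 1359 and 1255 were split, with replicates 1 and 2 above every non-injured library and replicates 3 and 4 within the non-injured range.

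XLOC_014404 and XLOC_002531 had higher values. XLOC_014404 gave 14548, 7305, 11310 and 9898 in non-injured apexes and only 1545 to 2980 in the 8 early libraries, a fall of 4.69-fold. At 7 dpci it gave 6578, 5322, 7653 and 5692, where 1 of the 4 values exceeded the lowest non-injured value, and at 14 dpci 13018, 12306, 6353 and 6829. XLOC_002531 followed the same order: 6265, 2533, 5356 and 4333 without injury, 552 to 1470 early, 2341 to 2937 at 7 dpci, then 6946, 4905, 1934 and 2346 at 14 dpci. In both loci non-injured replicate 2 was the lowest of its group and 14 dpci replicates 1 and 2 were in the upper part of the non-injured range or above it.

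XLOC_013282 stood at 419 ± 82.8 (SD, n = 4) without injury, 94.6 ± 14.3 at 1.5 dpci, 90.8 ± 25.9 at 3 dpci, 313 ± 57.9 at 7 dpci and 306 ± 78.1 at 14 dpci. It was among the 8 members whose 14 dpci mean did not exceed the 7 dpci mean. XLOC_022623 stood at 2654 ± 511 without injury and 560 ± 122 and 627 ± 105 in the early groups, then at 1948 ± 378 and 3013 ± 764.

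**Figure D2:**
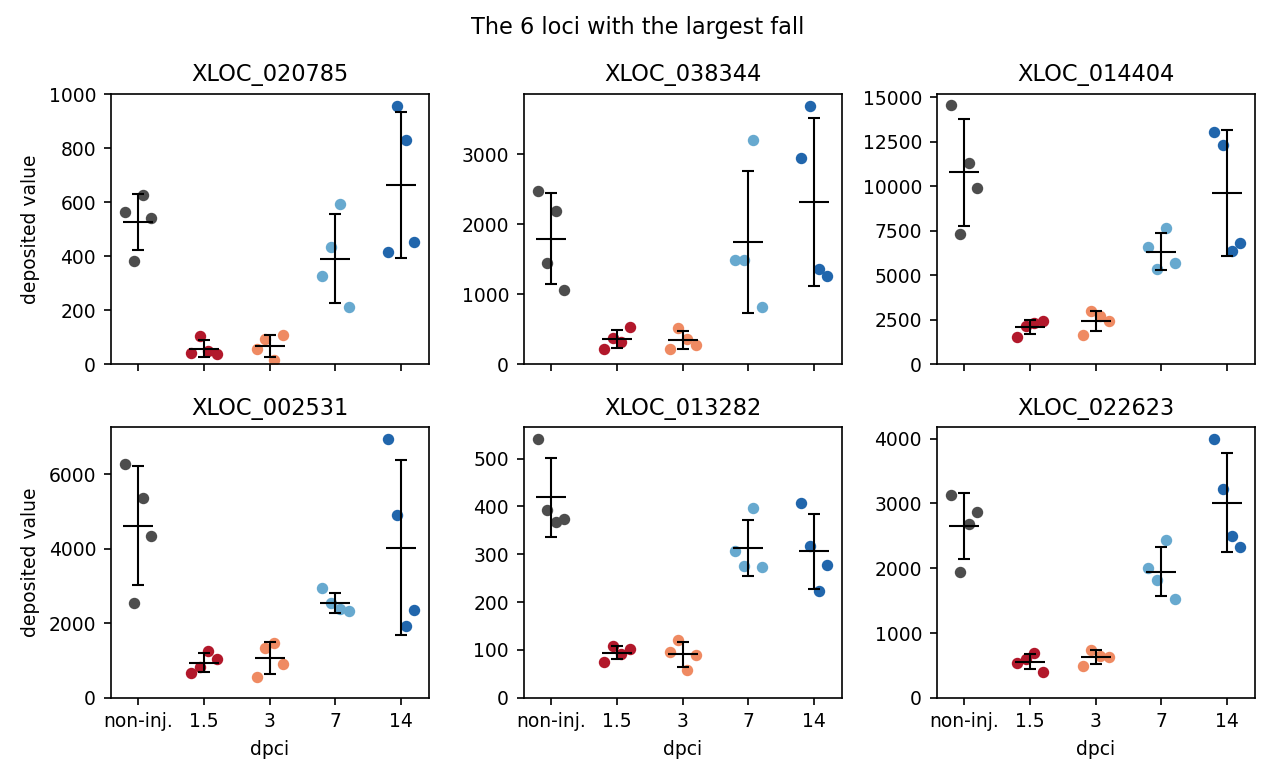
Each panel shows the deposited values of 1 of the 6 members with the largest fall, against the group (non-injured, then days post-cryoinjury), with 1 point per library and bars for the mean ± SD of 4 libraries. In every panel the 8 early values lie below the 12 others, as the rule required. At 7 and 14 dpci some values lie within the non-injured range and others above or below it. The SD at 14 dpci is larger than without injury in every panel but that of XLOC_013282.

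The 3 members with the highest non-injured means were XLOC_040397, XLOC_056149 and XLOC_038787. XLOC_040397 measured 32868, 16877, 25996 and 25617 in non-injured apexes, 3474, 5453, 5136 and 5893 at 1.5 dpci, then 4395, 7957, 7913 and 5773 at 3 dpci. Later it measured 18132, 13979, 24392 and 18011 at 7 dpci, then 25517, 27289, 16964 and 17623 at 14 dpci. Apart from 7 dpci replicate 2, every library at 7 and 14 dpci was above the lowest non-injured library.

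XLOC_056149 went from 23462 ± 8598 (SD, n = 4) to 5554 ± 1559 and 6368 ± 1612, and then to 14989 ± 2375 and 21435 ± 10191. The wide non-injured spread came with replicate 2, at 11368 where the other 3 were at 25206 to 31711. At 14 dpci replicates 1 and 2 were at 35286 and 22850, and replicates 3 and 4 at 13040 and 14563. XLOC_038787 was tighter before injury (22708, 18934, 24566 and 25012). Its mean was lower at 3 dpci (5026 to 6195) than at 1.5 dpci (6187 to 9719), but the ranges overlapped. That log2 difference of -0.48 ± 0.17 (SE) did not pass the threshold (limma adjusted p = 0.088). At 7 dpci it gave 14042, 13957, 14295 and 10964, all below the non-injured values, a log2 difference of -0.78 ± 0.17 (SE; limma adjusted p = 0.00626, and 0.000731 to 0.142 over the alternatives, the last against non-injured replicates 1 and 2 alone).

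At the other end, XLOC_016936, XLOC_023773 and XLOC_007851 had the lowest non-injured means. XLOC_016936 was at 150, 189, 139 and 136 without injury and at 22.8 to 51.2 at 1.5 dpci. In 3 dpci replicate 3 it reached 84.8, where the other 3 libraries of that group gave 29.3 to 34.2. At 7 dpci its mean was 146 ± 32.9 (SD, n = 4) and at 14 dpci 151 ± 36.3, beside 153 ± 24.2 without injury. XLOC_023773 went from 167 ± 29.1 to 51.7 ± 10.3 and 53.1 ± 9.15, and then to 149 ± 28.2 and 170 ± 30.1. XLOC_007851, from 168 ± 68.0, fell to 52.8 ± 15.0 and 42.9 ± 15.8 before reaching 126 ± 40.5 and 158 ± 42.2.

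The limit of 150 members fell within a continuous series of loci. The last inside were XLOC_026529, with a fall of 1.53, and XLOC_053517, with 1.52, and the first outside were XLOC_031690 and XLOC_021271, each with 1.52 to 2 decimals. The 572 loci ranked below had falls of 0.25 to 1.52 with a median of 0.99, and the 31 loci left out for their high values had falls of 0.65 to 2.15 with a median of 1.42.

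Between 1.5 and 3 dpci the members hardly moved as a group, a gap that the rule limited. The 3 dpci mean was higher in 88 members and lower in 62, with a median log2 difference of 0.04 and a range of -0.49 to 0.49. None of the 150 passed the adjusted p in limma in either direction, where 4.21% of the loci with a mean of at least 100 were lower and 7.36% higher at 3 dpci. At an unadjusted p under 0.05 there were 6 higher and 1 lower, given without the share over all loci. On the recovered reads edgeR called 0, where 1940 of 62528 loci tested were lower and 2587 higher.

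At the ends of that range, XLOC_019812 gave 1267, 1820, 1097 and 2607 at 1.5 dpci, then 1547, 2778, 2474 and 2396 at 3 dpci. XLOC_063931 gave 192, 147, 137 and 217, then 215, 290, 201 and 253. Neither pair of groups was free of overlap. In the other direction XLOC_046795 gave 713, 841, 1207 and 919 at 1.5 dpci, then 301, 771, 837 and 881 at 3 dpci. XLOC_008544 gave 190, 171, 177 and 144, then 96.7, 163, 104 and 131, with 3 of its 4 later values below all of the earlier ones.

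By 7 dpci the median member had regained most of its fall, but not all of it. The rule bounded the 7 dpci values only from below, though it did use the non-injured values they are compared with, so what follows is no independent test of the members as a group. The median member stood at -0.60 on the log2 scale relative to non-injured, within a range of -1.09 to 0.24, beside a median of -0.04 over the 16199 loci. That median was -0.75 to -0.45 with 1 library left out. With every library scaled to the same total it was -0.47, beside 0.09 over the 16199 loci. The share of the fall regained at 7 dpci was 65.9% at the median member, 47.1% at the lowest and 113.5% at the highest. The 7 dpci mean was below the non-injured mean in 147 of 150 members.

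In the limma fit 26 of the 150 members (17.3%) passed as lower at 7 dpci, where the background was 5.45% of all loci tested and 8.32% of those with a mean of at least 100. None passed as higher, beside 9.59% of the loci with a mean of at least 100 (0 at an unadjusted p under 0.05). At an unadjusted p under 0.05, 97 were lower, a count given without its share over all loci. With recovered reads, which lack 7 dpci replicate 1, edgeR found 16 lower and 0 higher, where 2112 of 62528 loci tested were lower and 2803 higher. With limma-voom on the same reads 17 were lower, also given without a background. The 26 ranged from -1.09 to -0.61 on the log2 scale.

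The count turned on single libraries. It was 84 without non-injured replicate 2 and 46 without 14 dpci replicate 1, which enters only the shared estimate of the spread. It was 16 without non-injured replicate 4, 14 without replicate 1, 12 without replicate 3, 13 without 7 dpci replicate 2 and 11 without 7 dpci replicate 4. Against non-injured replicates 1 and 2 alone it was 4, and against replicates 3 and 4 alone it was 41. The share of all loci called lower under each of these alternatives is not given here. A shift in the members is therefore not told apart from a shift in all calls. In 21 members (14.0%) all 4 values at 7 dpci lay below all 4 non-injured values, which was so in 9.96% of the loci with a mean of at least 100.

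XLOC_003178 had the smallest adjusted p at 7 dpci and the only one past 0.05 at 14 dpci. It measured 16135, 12690, 17469 and 16408 without injury, 4008, 4147, 4953 and 4052 at 1.5 dpci, then 3961, 4895, 5087 and 5205 at 3 dpci. Every early value was below the non-injured range, as the rule required. At 7 dpci it was at 9413, 8502, 9416 and 6836, all below the lowest non-injured value, a difference of -0.88 ± 0.13 (SE; limma adjusted p = 0.000275). At 14 dpci it was at 13310, 12114, 9697 and 11110, where only replicate 1 exceeded the lowest non-injured value, with a difference of -0.44 ± 0.13 (adjusted p = 0.0362, and 0.0121 to 0.404 over the alternatives). That call was lost without any 1 of non-injured replicates 1, 3 and 4 and 14 dpci replicates 2, 3 and 4.

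The lowest 7 dpci levels relative to non-injured were those of XLOC_022624, XLOC_013769 and XLOC_014244. XLOC_022624 measured 740, 733, 901 and 861 without injury and 388, 329, 471 and 342 at 7 dpci, without overlap, a difference of -1.09 ± 0.24 (SE; limma adjusted p = 0.00596). XLOC_013769 measured 1810, 569, 1607 and 1363, then 679, 636, 676 and 596. With non-injured replicate 2 below all 4 of the later values, its difference of -0.92 ± 0.40 had an adjusted p of 0.14 in limma. XLOC_014244 measured 3487, 1505, 3014 and 2773, then 1451, 1297, 1409 and 1444, with -0.88 ± 0.28 and an adjusted p of 0.0473. That call was lost in 20 of 32 alternatives, among them leaving out any 1 library at 7 dpci and any 1 of 13 libraries in all, while the call of XLOC_022624 was lost only against non-injured replicates 1 and 2 alone (adjusted p = 0.118).

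Only 3 members had a 7 dpci mean at or above the non-injured mean: XLOC_013829, XLOC_028878 and XLOC_063931. XLOC_013829 was at 1709, 869, 1567 and 610 without injury and at 1347, 1403, 1310 and 1105 at 7 dpci. XLOC_028878 was at 1225, 789, 433 and 321, then at 708, 694, 742 and 548. Their non-injured libraries scattered widely around the even 7 dpci values. XLOC_063931 was at 1335, 1070, 740 and 613, then at 1193, 805, 852 and 956. None of these differences (0.24 ± 0.32, 0.14 ± 0.38 and 0.07 ± 0.27 on the log2 scale) exceeded its standard error.

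The share regained by 7 dpci is given by class of mean value, which is not an amount of RNA. Among the 38 with a mean under 1000 over all libraries the median share regained was 74.0%, and 2 were called lower. Among the 67 with a mean of 1000 to 5000 it was 62.6%, with 12 called, and among the 45 at or above 5000 it was 66.8%, with 12 called. The difference between these classes was not tested.

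**Figure D3:**
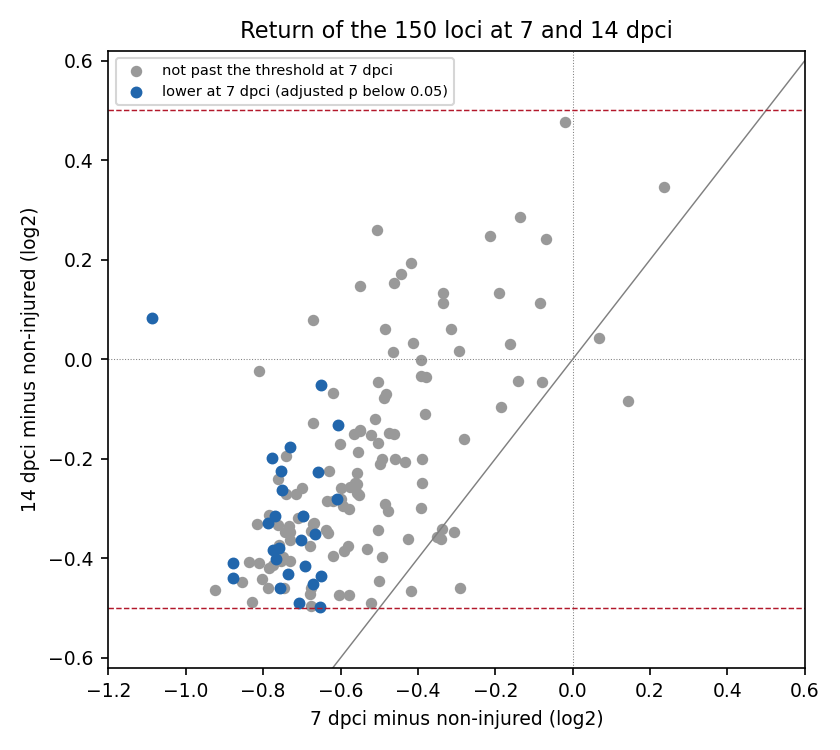
Each point is 1 of the 150 members, with the log2 difference from non-injured at 7 dpci on the horizontal axis and at 14 dpci on the vertical axis. The dashed lines mark the limit of 0.5 set by the rule at 14 dpci, the diagonal marks equal differences, and blue points are the 26 members called lower at 7 dpci. Most points lie above the diagonal (142 of 150) and below 0 on both axes, and XLOC_022624 is the lone point at the far left.

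Between 7 and 14 dpci few members were without overlap, a share near that of the other loci, and 1 was called. The rule did not use this contrast directly, though it bounded both groups. The 14 dpci mean was above the 7 dpci mean in 142 members, with a median log2 difference of 0.34 and a range of -0.23 to 1.17, beside a median of 0.01 over the 16199 loci. The median was 0.14 without 14 dpci replicate 1 and at most 0.49 with another library left out (14 dpci replicate 3). All 4 values at 14 dpci exceeded all 4 at 7 dpci in 6 of 150 (4.00%), beside 5.08% of the loci with a mean of at least 100. In limma 1 member was called higher and 0 lower, where the background was 0.105% of all loci tested as higher, and 0.148% higher and 0.71% lower among those with a mean of at least 100. At an unadjusted p under 0.05 there were 25 higher and 0 lower, given without the share over all loci. In edgeR, without 7 dpci replicate 1, 0 were called in either direction, where 169 of 62528 loci tested were lower and 46 higher.

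The member called was XLOC_022624, at 388, 329, 471 and 342 at 7 dpci, then 1521, 816, 744 and 573 at 14 dpci. All 4 later values were higher than the earlier ones, 14 dpci replicate 1 by far the most. The log2 difference was 1.17 ± 0.24 (SE; limma adjusted p = 0.0319, and 0.0163 to 0.213 over the alternatives). The call was lost when only the 8 libraries compared were fitted, and without any 1 of 7 dpci replicates 1, 2 and 4 and 14 dpci replicates 1 and 2. It was also lost with either test on recovered reads. Those tests lack 7 dpci replicate 1, so the test and the missing library are not told apart there.

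At 14 dpci the members stood between -0.50 and 0.48 of the non-injured mean on the log2 scale, limits that the rule set. Within them the median was -0.28, beside -0.00 over the 16199 loci, and 127 members were below the non-injured mean and 23 above it. The median was -0.48 without 14 dpci replicate 1, -0.43 without non-injured replicate 2, -0.17 without 14 dpci replicate 4, -0.13 without non-injured replicate 1 and -0.12 without 14 dpci replicate 3. The share of the fall regained was 83.9% at the median member, 68.0% at the lowest and 124.0% at the highest. The rule bounded this contrast in the members and not in the other loci. The share regained and the counts of calls at 14 dpci are therefore a description. In limma XLOC_003178 alone was called lower and none higher, where 6.63% of all loci tested and 9.03% of those with a mean of at least 100 were lower and 7.78% of the latter were higher. There were 13 lower and 0 higher at an unadjusted p under 0.05, given without the share over all loci. In edgeR 0 were called in either direction, where 3786 of 62528 loci tested were lower and 2555 higher. Without 14 dpci replicate 1 the count of lower members was 13, and without non-injured replicate 2 it was 9, both without the share of all loci in the same fit.

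The members also moved together between libraries of the same group. The rule did not ask for this directly, but it chose the members on the same 20 values. Each member's deviations from its 5 group means were correlated over the 20 libraries with the median deviation of the other members. The median correlation was 0.89, with quartiles of 0.63 and 0.96. In 94 members it was over 0.8, in 22 under 0.3 and in 3 below 0. The same measure against the members had a median of 0.65 in the 572 loci ranked below 150, 0.87 in the 31 loci left out for their high values and 0.14 in all loci with a mean of at least 100, of which 4.89% exceeded 0.8. Within groups the median range of log2(value + 1) was 1.11 in the members without injury, beside 0.57 in all loci with a mean of at least 100. At 14 dpci it was 1.10 beside 0.56, and at 7 dpci it was narrower in the members, 0.42 beside 0.55. How far the choice of members shaped the correlations was not tested. The points share their libraries and their scaling, and the correlations are given as a description.

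**Figure D4:**
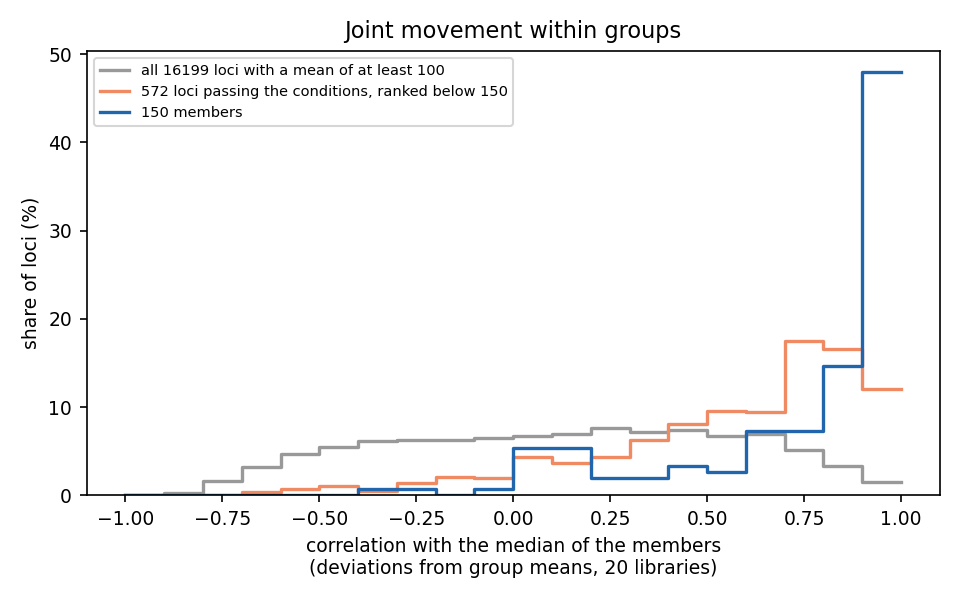
The horizontal axis is the correlation, over deviations from group means in 20 libraries, of a locus with the median of the members, and the vertical axis is the share of loci in percent per step of 0.1. The blue line (150 members) has most of its loci at the right end, the orange line (572 loci ranked below) is broader, and the grey line (16199 loci with a mean of at least 100) is spread over both signs with a median of 0.14.

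In every group the same libraries stood at the ends in most members, apart from the highest library at 7 dpci. Within the non-injured group, replicate 1 was the highest in 129 of 150 members, beside 32.1% of the loci with a mean of at least 100, and replicate 2 was the lowest in 117, beside 38.1%. At 14 dpci replicate 1 was the highest in 126 members (42.5% of those loci) and replicate 3 the lowest in 100 (28.5%). The 14 dpci group was split in this set: replicates 1 and 2 were both above replicates 3 and 4 in 137 of 150 members, beside 29.6% of the loci. In the other groups the commonest highest library was replicate 3 at 1.5 dpci (86 members, beside 32.3% of the loci). It was replicate 2 at 3 dpci (79, beside 21.5%) and replicate 3 at 7 dpci (72, beside 21.8%). The commonest lowest was replicate 1 at 1.5 dpci (79, beside 23.9%) and replicate 1 at 3 dpci (111, beside 44.2%). At 7 dpci it was replicate 4 (103, beside 31.2%). In the non-injured, 1.5 and 14 dpci groups the libraries named as highest and lowest also had the highest and lowest totals of their groups. This was not so for the highest at 3 dpci, where replicate 3 had the highest total, nor for the lowest at 7 dpci, where replicate 4 had the second highest. What part the totals have in the shared order was not tested.

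The highest correlation, 0.99, was that of XLOC_003203. This locus had the order given above except at 1.5 dpci, where replicate 2 was the lowest, just below replicate 1. It measured 6306, 2699, 4951 and 4594 without injury, 1148, 1146, 1484 and 1290 at 1.5 dpci, then 920, 1715, 1635 and 1264 at 3 dpci. At 7 dpci it measured 3067, 2952, 3082 and 2629, and at 14 dpci 5825, 4481, 2502 and 2899. Non-injured replicate 2 was lower in this locus than 3 of the 4 libraries at 7 dpci.

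By class of mean value, the median correlation was 0.46 in the 38 members with a mean under 1000, 0.95 in the 67 with 1000 to 5000 and 0.93 in the 45 at or above 5000, a difference that was not tested. XLOC_005695, with a non-injured mean of 1861, had a correlation of -0.29. That locus gave 1802, 2180, 1665 and 1797 without injury, with replicate 2 the highest, 468 to 662 in the early libraries, 1420, 835, 1239 and 901 at 7 dpci, then 1329, 1724, 1633 and 1264 at 14 dpci.

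The lowest correlation, -0.39, was that of XLOC_032253, at 349, 470, 198 and 156 in non-injured replicates 1 to 4. It gave 71.3 to 82.8 at 1.5 dpci and 33.6 to 90.2 at 3 dpci, then 166 to 221 at 7 dpci and 170 to 261 at 14 dpci. Its non-injured replicates 1 and 2 were both above replicates 3 and 4. That order was found in 22 of the 150 members (14.7%), beside 18.0% of the loci with a mean of at least 100. Of those 22 members, 14 were among the 22 with a correlation under 0.3 and none was among the 94 with one over 0.8. The correlation used the same non-injured values, against a median that was lowest in replicate 2. A low correlation thus follows in part from this order, and the counts are a description. XLOC_032251, with a number 2 below, had the same non-injured order (1454, 1181, 790 and 585) and a correlation of 0.02.

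Several members lay at adjacent numbers. Loci close in number had more similar values: the mean correlation of log2(value + 1) over the 20 libraries, between loci with a mean of at least 10, was 0.35 at a distance of 1 number, 0.13 at 10 and -0.00 at 1000. Members were found from XLOC_000347 to XLOC_064451, in 56 bins of 1000 numbers with a median of 2 members in a bin that had any and at most 8. There were 4 runs of directly adjacent numbers, with 11 members: XLOC_007830 to XLOC_007833, XLOC_007850 to XLOC_007852, XLOC_022623 with XLOC_022624, and XLOC_048629 with XLOC_048630. Adjacent loci may be parts of 1 gene or share reads, which the table does not show, so these members may not be separate genes.

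The longest runs lay close together. Including XLOC_007825, the stretch from XLOC_007825 to XLOC_007852 held 8 members among 28 numbers, of which 15 had a mean of at least 100. This stretch was singled out after its values were seen. The 8 loci resembled each other, with pairwise correlations of deviations from 0.73 to 0.96 (median 0.88, 28 pairs), and little resembled the other members, with correlations of 0.05 to 0.41.

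The loci of the stretch shared the non-injured order of XLOC_032253, with replicates 1 and 2 high. XLOC_007832, with the highest values of the 8, measured 7386, 7047, 4951 and 4389 without injury, 1994, 1212, 1415 and 1481 at 1.5 dpci, then 2119, 1713, 1492 and 2096 at 3 dpci. Later it measured 4536, 3836, 4802 and 2717 at 7 dpci, then 5524, 4609, 4058 and 2951 at 14 dpci. Its non-injured replicates 1 and 2 were the highest of all 20 libraries, and replicate 4 was the lowest at 7 and 14 dpci.

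XLOC_007831 kept 4056 ± 682 (SD, n = 4) without injury, 1106 ± 197 and 1272 ± 138 early, 2578 ± 604 at 7 dpci and 2999 ± 724 at 14 dpci. XLOC_007830 had 2610 ± 589, 744 ± 171, 858 ± 158, 1609 ± 410 and 1863 ± 422 in the same order, and XLOC_007833 had 682 ± 168, 204 ± 42.3, 220 ± 36.9, 430 ± 126 and 494 ± 129. The 4 loci of the longer run lay close to each other relative to their non-injured means, at -0.71 to -0.58 on the log2 scale at 7 dpci and -0.49 to -0.45 at 14 dpci.

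In the shorter run XLOC_007850 had 1303 ± 521 (SD, n = 4), 468 ± 101, 362 ± 109, 891 ± 252 and 1092 ± 303, and XLOC_007852 had 650 ± 222, 225 ± 32.4, 165 ± 36.0, 423 ± 107 and 489 ± 126. XLOC_007825 stood at 806, 691, 205 and 223 without injury, where replicates 3 and 4 were below all 4 values at 7 dpci (524, 393, 451 and 226). It had regained 95.8% of its fall at 7 dpci, beside 58.4% to 78.7% in the other 7.

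**Figure D5:**
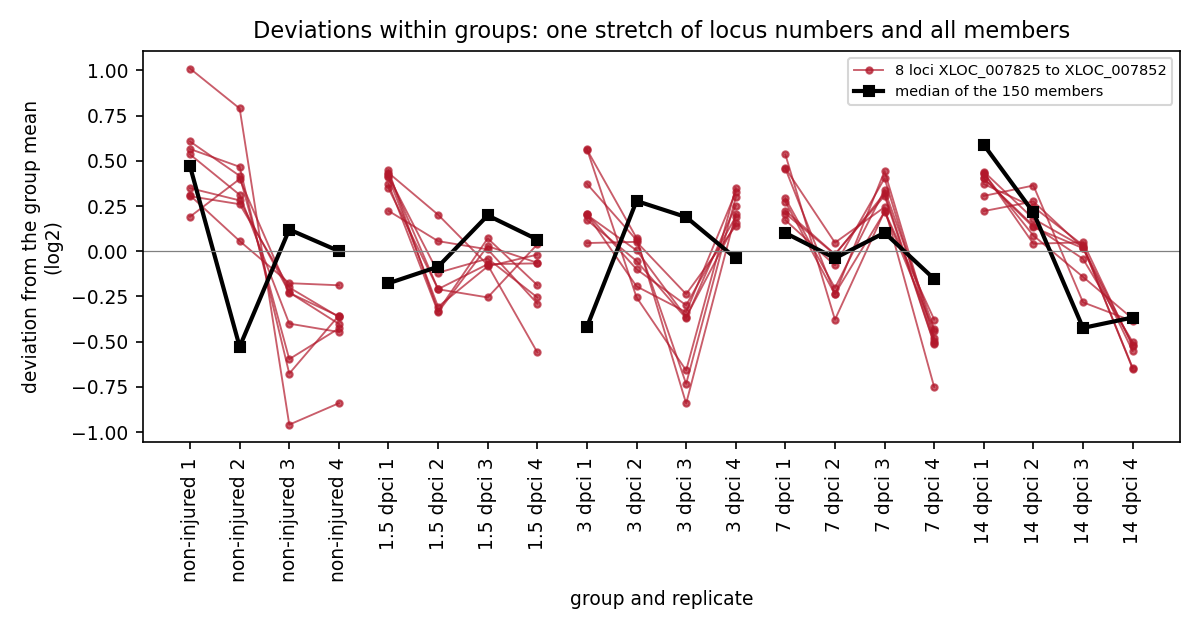
The vertical axis is the deviation of log2(value + 1) from the group mean, and the horizontal axis gives the 20 libraries by group and replicate. Red lines are the 8 members from XLOC_007825 to XLOC_007852, and the black line is the median of the 150 members. In the non-injured group the red lines are high in replicates 1 and 2 and low in 3 and 4, while the black line is highest in replicate 1 and lowest in replicate 2.

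Loci next to the members by number were also counted. The rule was applied to them as to every locus, and they were not chosen as members. Loci 1 number apart had similar values in general (mean correlation 0.35, as given above), so the counts are a description. Numbers 1 above or 1 below a member belonged to 283 loci that were not members, of which 191 had a mean of at least 10. At 1.5 dpci 56 of the 191 (29.3%) were called lower and 28 (14.7%) higher in limma, beside a background of 16.7% lower and 16.1% higher among all loci with that mean. At 3 dpci 59 (30.9%) were lower and 29 (15.2%) higher, beside 16.9% lower and 16.9% higher.

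The larger share of lower neighbours was seen in both classes of mean value: it was 31.7% (39 of 123) beside 24.2% at a mean of at least 100 and 25.0% (17 of 68) beside 9.43% at a mean of 10 to 100, at 1.5 dpci. Of the 191, 8 met the rule's own conditions but were ranked below 150 or were among the 100 loci with the highest non-injured means, and without them 48 of 183 (26.2%) were lower at 1.5 dpci and 51 (27.9%) at 3 dpci. With every library scaled to the same total the balance turned, with 36 lower and 61 higher at 1.5 dpci (background 8.87% and 31.4%) and 38 lower and 53 higher at 3 dpci (background 10.1% and 26.6%). The lower share remained above the background under that scaling (18.8% and 19.9%). Whether neighbours share reads or a transcript with the members was not tested.

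Among the neighbours the largest falls at 1.5 dpci were those of XLOC_028879 and XLOC_054827. XLOC_028879, beside the member XLOC_028878, had values of 82.1, 101, 128 and 58.6 without injury and of 0.91, 2.27, 1.37 and 3.35 at 1.5 dpci, which are 1 to 4 reads, and then 16.8 to 33.0 at 3 dpci. Its log2 difference at 1.5 dpci was -4.99 ± 0.32 (SE; limma adjusted p = 1.33e-09). Over the early libraries together XLOC_028879 fell 10.6-fold and the member beside it 3.87-fold. That member was at a similar level at 1.5 and 3 dpci (166 ± 48.8 and 171 ± 95.5, SD, n = 4). XLOC_054827 was at 3597, 6335, 5622 and 3039 without injury, 153 to 239 at 1.5 dpci and 1372 to 2291 at 3 dpci, with -4.51 ± 0.55 at 1.5 dpci (adjusted p = 1.67e-05). Both rose again between 1.5 and 3 dpci, by 3.16 ± 0.32 and 3.27 ± 0.55 on the log2 scale (adjusted p = 5.59e-06 and 0.00115). At 7 dpci XLOC_054827 was split, at 6496 and 4980 in replicates 1 and 2 and at 760 and 763 in replicates 3 and 4.

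The largest rises among the neighbours were those of XLOC_023304 and XLOC_030247. XLOC_023304 was at 111, 30.6, 70.9 and 23.9 without injury, 569 to 1285 at 1.5 dpci and 327 to 772 at 3 dpci, with 4.15 ± 0.44 at 1.5 dpci (SE; limma adjusted p = 1.62e-06). It was back at 64.7 to 140 at 7 dpci. XLOC_030247 was at 8.84, 3.95, 0 and 3.59 without injury and 26.1 to 69.4 at 1.5 dpci, with 3.54 ± 0.56 (adjusted p = 0.000107). Its non-injured values were near the floor, since 1 read had a value of 0.99 to 1.26 in those libraries. It stayed higher than without injury, by 2.54 ± 0.56 at 7 dpci and 2.36 ± 0.56 at 14 dpci (limma adjusted p = 0.00602 and 0.00951). Those calls were lost in 3 and 2 of 32 alternatives.

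Membership itself rested on a few libraries. Applied again without 1 library, the rule found between 84 and 150 of the 150 members, with the fewest without 14 dpci replicate 1 (84) and without non-injured replicate 2 (93). Against non-injured replicates 1 and 2 alone it found 91 of them, and against replicates 3 and 4 alone 107. As given above, 14 dpci replicate 1 was the highest of its group in 126 members and non-injured replicate 2 the lowest of its group in 117.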

How the data were processed

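RNA of pooled ventricle apexes was sequenced by the study from stranded total-RNA libraries, aligned to the zebrafish genome GRCz10 with Ensembl 90 annotation and summed with Cufflinks, Cuffmerge and Cuffdiff. The deposited table holds, for each locus and library, a signal that the authors scaled by the median of geometric means. The study's methods speak of FPKM, but the values up to 20 reads were whole multiples of the value of 1 read in 19 libraries (within 0.1), with 99.96% to 99.99% whole over all loci, so they were treated as reads divided by a size factor. The name and position columns are filled for fewer rows than there are loci and in another order, and were not used. Columns left unmatched to a sample numbered 0.

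Group differences were fitted with limma 3.58.1 in R 4.3.3 (trended and robust eBayes) on log2(value + 1) over all 5 groups, with Benjamini-Hochberg adjustment over 62594 loci and a threshold of 0.05. A fold on this scale understates the change of low loci. Alternatives were edgeR 4.0.16 quasi-likelihood and limma-voom tests on recovered reads (without 7 dpci replicate 1), other scalings, pseudocounts of 0.1 and 5, filters, other controls, the replicate number as a block and each library left out. The scripts were tested on simulated data. Within each group, no pair of libraries with recovered reads was as alike as counting noise alone would make it, and none was treated as a duplicate. Intervals from counting were not needed, since the spread between libraries was used.

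The members, the lists and the tests were chosen with earlier results of these data known. Loci were named by a rule: the 6 largest falls, the 3 highest and 3 lowest non-injured means, the 3 highest and 3 lowest 7 dpci levels, loci called between 7 and 14 dpci, the ends of the 1.5 to 3 dpci difference, the loci on either side of rank 150, the 2 longest runs of adjacent numbers, the 2 largest falls and rises among neighbours, and loci behind small counts. The loci named for their correlation, and the stretch around the 2 runs, were chosen after their values were seen.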

Additional observations from a re-analysis of the deposited data

Results flagged for a closer look

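In groups of 4 libraries, the gap between the highest or lowest library and its nearest neighbour was compared with the range of the group. It exceeded Dixon's 95% critical value in 5 of 190 groups examined, where chance would give about 9.5. In XLOC_038787 at 7 dpci replicate 4 was low (10964, the others 13957 to 14295), with a gap of 0.910 of the range. In XLOC_016936 at 3 dpci replicate 3 was high, with 0.854, and in XLOC_046795 at 3 dpci replicate 1 was low, with 0.875. In XLOC_003178 at 1.5 dpci replicate 3 was high, with 0.839. In the neighbour XLOC_023304 at 7 dpci replicate 1 was high (140, the others 64.7 to 71.1), with 0.878.

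XLOC_022624 differed between 7 and 14 dpci by 1.17 on the log2 scale (limma adjusted p = 0.0319), higher in all 4 libraries at 14 dpci than in any at 7 dpci. Without 14 dpci replicate 1, the highest of them, the difference was 0.89 (adjusted p = 0.0571).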

How the results depend on the processing

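All 150 members were called lower at 1.5 and 3 dpci under every alternative run except non-injured replicates 3 and 4 as controls, where 148 and 149 were called (XLOC_007850 was lost at 1.5 dpci, adjusted p = 0.0569). The count lower at 7 dpci (26) was 14 when only the libraries compared were fitted, 17 with limma-voom, 16 with edgeR, 4 against non-injured replicates 1 and 2 alone, 41 against replicates 3 and 4 alone, and 11 to 84 with 1 library left out. The count lower at 14 dpci (1) was 2 with equal library totals (a scaling added after the data were seen), 3 with a filter of 10 in 4 libraries, 0 with only the libraries compared, 0 with replicates 1 and 2 as controls, 2 with replicates 3 and 4, 0 with edgeR, and 0 to 13 with 1 library left out. The count higher at 14 than at 7 dpci (1) was 0 with only the libraries compared, 0 with limma-voom, 0 with edgeR and 0 to 1 with 1 library left out. The count changed between 1.5 and 3 dpci (0) was 1 with quantile normalization, 1 with equal totals, 1 with only the libraries compared and 0 to 1 with 1 library left out. The median difference at 1.5 dpci was -1.37 with equal totals.

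Neighbours lower at 1.5 dpci (56) numbered 36 with equal totals, 94 within 2 numbers and 46 to 58 with 1 library left out. Neighbours higher (28) numbered 61, 56 and 22 to 31, and 16 against non-injured replicates 1 and 2 alone. At 3 dpci those lower (59) numbered 38, 97 and 46 to 61, and those higher (29) numbered 53, 55 and 22 to 30, and 19 with those controls. Each count within 2 numbers comes from a larger set than the 191 neighbours. The size and background of that set are not given here, so its counts do not show a rise in calls. The rule found 91 members again with replicates 1 and 2 as controls and 84 to 150 with 1 library left out. Of the values of named loci under the alternatives, 1475 kept their call, 93 lost it and 0 reversed; the call of XLOC_003178 at 14 dpci was lost in 10 of 32 alternatives. Apart from the scaling and the number of libraries or loci in a fit, the cause of these shifts was not tested. Except where a background is given above, the counts in this section come without the share of all loci called under the same alternative.

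The labels do not say whether the replicate numbers pair the libraries. Deviations of same-numbered libraries of different groups correlated by -0.33 to 0.37 over 40 pairs (median -0.08, 10 over 0.1). For different numbers the range was -0.47 to 0.50 over 120 pairs (median 0.01). These values show no likeness by number, but cannot tell whether tubes shared a session. With the replicate block the count lower at 7 dpci was 24 and that at 14 dpci was 0.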
